A study of Homo sapiens with 4 samples.

Results

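The data are 2 of the 4 arrays of a study of human cancer cells, those of HCT116, a colorectal cancer line. One array held total RNA of HCT116 cells that had received the microRNA miR-891b, and the other held RNA of HCT116 cells that had received a negative control RNA, NC1. Both were chosen by their titles, and all genes on them were described. The remaining 2 arrays held the same pair of transfections in A549, a lung cancer line, and enter here only for comparison. Transfection was with Dharmafect1, a lipid reagent that both HCT116 groups received, and the HCT116 cells were grown in McCoy's 5A medium. The study concerns PSAT1, an enzyme of serine synthesis, and the extracellular vesicles that cancer cells release.

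A microRNA is a short RNA that guides an Argonaute protein to transcripts. Pairing is set mainly by the seed, a stretch near the 5′ end of the microRNA, and a transcript with a matching site is translated less or degraded sooner. An array reads such degradation as a lower signal, together with every later change in the cell that follows from it, and does not separate direct targets from later changes.

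The mature sequence of miR-891b is shown because its seed defines the sites looked for in the array's probes. RefSeq (GRCh38.p14) places the 22 bases of hsa-miR-891b at chrX:146001100-146001121 on the minus strand, in the gene MIR891B. The capitals mark the seed, bases 2 to 8, written 5′ to 3′, and of the 2545 mature human microRNAs in the table no other shared this seed.
hsa-miR-891b: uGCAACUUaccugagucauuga

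The site that pairs with the seed is AAGTTGC in DNA letters. Probes of this array are up to 60 bases long and sample a small part of each transcript, so most sites of a transcript lie outside its probe. The sites below are those of named genes in probes lowered 1.5-fold or more and outside areas of stray signal, which are explained further on. Another 3 measured probes with the site were raised 1.5-fold or more. They are not shown here and are named further on. Capitals mark the site, and each line is a stretch of the probe.
SLC8A2: atttctgtaaAAGTTGCcataaaactt
CBLB: cagtttggcaAAGTTGCagtttg
EP400NL: ctcattctagAAGTTGCtgagttgttc
LBX2-AS1: ttgttccttgAAGTTGC
CDH3: gagtgtgcctAAGTTGCcccttatttt
STK4-AS1: gcAAGTTGCatgatgctct

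Levels below are log2 processed signals relative to the 75th percentile of the array over its gene probes, so that a level of 0 means the signal of that percentile. A change is the miR-891b level minus the NC1 level of the same probe. With 1 array per group there are no replicates to set a difference against. No p-values are given, and a gene was called by size alone, at 2-fold or more. The 58201 gene probes gave 43317 genes, each read by its brightest probe, and 19105 genes were measured, meaning well above background on both HCT116 arrays. Of the gene probes, 46.0% with NC1 and 44.7% with miR-891b were well above background, and no gene spot was saturated. Probes printed at 6 to 10 spots gave a median SD of 0.061 for a log2 change between the arrays, over 276 probes, which covers the spots and neither the cultures nor the labelling. Both arrays lay on the same slide.

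Stray signal was uneven. A spot was taken to lie in an area of stray signal where, within 10 rows and columns, at least 10% of the neighbours expected to be dim (judged by the other 3 arrays) passed the background mark. A gene is said below to be read in such an area where its probe lay in one on any of the 4 arrays. These areas held 10.5% of the spots on the miR-891b array and 2.20% on the NC1 array. Markers of colorectal epithelium were read on both HCT116 arrays. On both, 9 of 12 were well above background, including EPCAM, CDX2, KRT18 and KRT19, whereas VIL1, CDH17 and ASCL2 were dim. In A549 all 12 were well above background on both arrays, so these markers do not tell HCT116 from A549. Of 10 fibroblast markers, only COL1A1 and PDGFRB were well above background in HCT116, on both arrays. Of 8 blood and endothelial markers 5 were with NC1 and 6 with miR-891b.

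Most genes differed little between the arrays. Of the 19105 genes, 17278 (90.4%) lay within 1.5-fold, and the log2 changes had an SD of 0.38, against 0.61 in A549. Genes lower by 2-fold or more numbered 161 (0.843%), and those higher by 2-fold or more 221 (1.16%). At 1.5-fold the counts were 1080 (5.65%) lower and 747 (3.91%) higher. The median change was -0.04, with 55.5% of genes below 0 and 44.5% above, and 90% of genes lay between -0.61 and 0.52. These values are the background for every gene group that follows. A lower level can stem from fewer cells that make a transcript or from less of it per cell, and the arrays cannot tell these apart.

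The calls thinned out with signal. In 3 equal groups of genes by mean level over the 2 arrays, the dimmest group had an SD of 0.48, with 86 genes at least 2-fold lower and 168 at least 2-fold higher. The middle group had an SD of 0.36, with 60 lower and 44 higher. The brightest group had an SD of 0.27, with 15 lower and 9 higher. Of all 19105 measured genes, 16159 were read outside areas of stray signal. Of the 221 higher genes, 133 were read outside and 88 inside, and of the 161 lower genes, 136 outside and 25 inside. Genes read outside such areas were at least 2-fold lower in 136 of 16159 cases (0.842%) and at least 2-fold higher in 133 (0.823%). The shares over all measured genes were 0.843% and 1.16%. The share of called genes that were higher was 57.9%, and it moved with the processing. It was 71.1% after normexp background correction with quantile normalization, which left 13 lower and 32 higher genes, 65.7% with median scaling and with quantile normalization alone 188 genes lay on either side. It was 49.3% once probes in stray areas were left out, 45.8% in rows 193 to 384 and 32.7% among signals above the median.

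**Figure D1:**
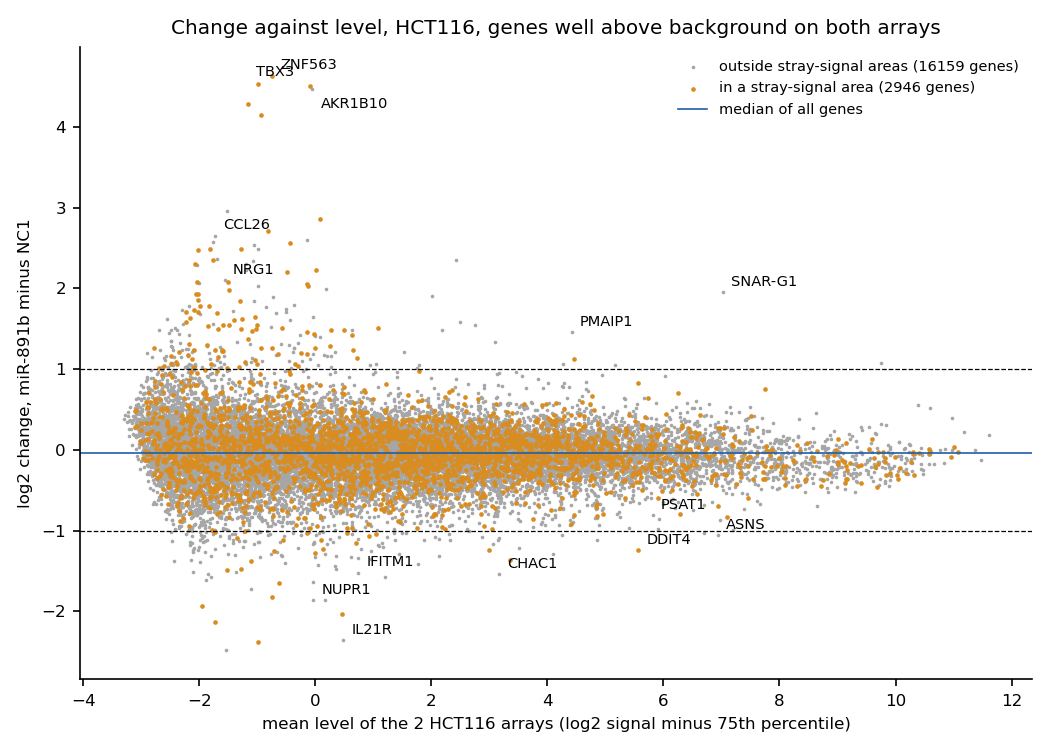
Change (log2, miR-891b minus NC1) of each of the 19105 genes against its mean level on the 2 HCT116 arrays; orange points are genes read in an area of stray signal, dashed lines mark 2-fold and the blue line the median of all genes. The spread narrows from left to right, and the highest points, ZNF563, TBX3 and AKR1B10, include genes inside and outside the stray areas.

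Probes with the miR-891b site were slightly lower as a group. Among 24667 measured probes, 101 held AAGTTGC, with a median change of -0.09 against -0.03 for the probes without it. Of the 101, 64 (63.4%) were below 0, against 53.9% of the others, and 8 (7.92%) were at least 1.5-fold lower, against 5.30%. At least 1.5-fold higher were 3, those of lnc-CDK2AP1-1 (1.17), SLC25A2 (1.06, in an area of stray signal) and SLC37A2 (0.66). The share of the others that were so much higher was not computed. The lowest change was -1.16 and the highest 1.17. The same 101 probes, chosen as measured in HCT116, had a median change of -0.50 in A549. All genes measured in A549 had a median of -0.06. The A549 value for probes without the site was not computed, so the -0.50 cannot be read as an effect of the site. A site extended to base 1 of the microRNA occurred in 29 probes with a median of -0.02, and the shorter site to bases 2 to 7 in 304 probes with a median of -0.08. Chance was not tested, and sites elsewhere in the transcripts were not analysed here.

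The probes with the site and the lowest changes belonged to genes of unlike function. SLC8A2, a sodium-calcium exchanger (probe at chr19:47931923-47931982, hg19), went from a level of -0.47 with NC1 to -1.64 with miR-891b, a change of -1.16. CBLB, a ubiquitin ligase of receptor signalling (chr3:105377495-105377554), went from 0.95 to -0.13, a change of -1.08. CDH3, the cell adhesion protein P-cadherin (chr16:68732812-68732871), went from 5.53 to 4.93, a change of -0.60. In A549 SLC8A2 and CBLB lay near 0 (-0.07 and -0.16), whereas CDH3 changed there by -1.07. EP400NL, a noncoding relative of EP400, went from -1.70 to -2.74, a change of -1.05. The antisense transcripts LBX2-AS1 and STK4-AS1 changed by -0.98 (-1.27 to -2.25) and -0.59 (-2.39 to -2.98). These 3 ended near the lowest level well above background on the miR-891b array, -3.14. The NDUFA6-AS1 probe with a change of -0.70 lay in an area of stray signal. Another NDUFA6-AS1 probe with the site, outside such areas, changed by -0.13. The remaining probe of the 8 carries no gene name.

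The next question was what happened to PSAT1 and the pathway around it. PSAT1, the aminotransferase of serine synthesis, went from a level of 6.22 to 5.41, which is -0.81 and short of 2-fold. PHGDH, the first enzyme of the pathway, went from 4.86 to 3.95, a change of -0.92, with its spot in an area of stray signal. PSPH, the last enzyme, went from 5.58 to 5.31. Over the list of serine synthesis and one-carbon genes, all 15 were measured, 11 were below 0 and the median was -0.27. None was past 2-fold, and 3 were at least 1.5-fold lower, PHGDH and PSAT1 among them. The mitochondrial enzymes SHMT2 and MTHFD2 differed by -0.27 and -0.30, the latter in an area of stray signal. ALDH1L2 and GLDC, which consume one-carbon units and glycine, lay on the other side of 0, with changes of 0.45 and 0.35.

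Genes that ATF4 switches on when amino acids run short were lower with miR-891b. Of 20 listed targets 18 were measured, 17 of them were below 0, and the median was -0.56. At least 2-fold lower were 5 (ASNS, CHAC1, DDIT4, NUPR1 and PCK2), and none was at least 2-fold higher. With normexp and quantile normalization CHAC1 and DDIT4 were still past 2-fold, whereas ASNS (-0.97), NUPR1 (-0.93) and PCK2 (-0.76) were not. At 1.5-fold the counts were 8 lower and 0 higher. Outside areas of stray signal the median was -0.56 as well, and over the other settings tried it lay between -0.58 and -0.35. ATF4 itself, the transcription factor, went from 8.89 to 8.53. A549 had a median of -0.09 over the same list.

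NUPR1, a small stress-induced chromatin protein, had the lowest change of the list, from 0.90 with NC1 to -0.96 with miR-891b, a change of -1.86. CHAC1, which breaks down glutathione, went from 3.94 to 2.39, a change of -1.54, and its second probe, from -0.51 to -1.96, gave -1.46. Both CHAC1 probes therefore placed the miR-891b array below NC1 by a like amount. PCK2, the mitochondrial enzyme that makes phosphoenolpyruvate, went from 1.07 to -0.38, a change of -1.44. DDIT4, an inhibitor of mTORC1, went from 6.18 to 4.94, a change of -1.24, with its spot in an area of stray signal. ASNS, asparagine synthetase, went from 7.46 to 6.41, a change of -1.05, among the brightest genes called. JDP2 (-0.99, in an area of stray signal), ADM2 (-0.68) and DDIT3 (-0.61, in an area of stray signal) were past 1.5-fold only. ATF5 was the 1 member above 0, at 0.39, also in an area of stray signal.

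Transporters that bring amino acids into the cell had a median of -0.43 over 12 measured genes of 15, with 10 below 0. SLC7A8, an exchanger of neutral amino acids, went from 0.17 to -1.23, a change of -1.40. SLC43A1, another neutral amino acid carrier, went from -0.91 to -1.96, a change of -1.05. These were the only list members past 2-fold. With normexp and quantile normalization neither was, SLC7A8 at -0.60 and SLC43A1 at -0.33. SLC6A9, the glycine transporter, differed by -0.81, SLC7A5 by -0.45 and SLC7A11, the cystine importer, by -0.41. SLC38A2, whose transcript is known to respond to amino acid supply, lay at 0.12. The enzymes that load amino acids on transfer RNA moved less: 17 of 20 were below 0, with a median of -0.21 and none past 1.5-fold.

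The ATF4 motif was looked for in the promoters, since the genes had been lower together. The motif searched was TGATGNAA on both strands, from 250 bases before to 50 bases after the start in RefSeq (GRCh38.p14). It was in 4 of the 17 list members with a promoter in the table, ASNS, CHAC1, ATF3 and FGF21, and in 3.67% of all 27305 promoters. Stretches of the promoters of the 2 members past 2-fold are shown with the motif in capitals, ASNS at chr7:97872444-97872501 on the minus strand and CHAC1 at chr15:40953237-40953294 on the plus strand, where the match lies on the other strand. A match describes the letters and not binding.
ASNS: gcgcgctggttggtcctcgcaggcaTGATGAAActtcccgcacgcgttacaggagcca
CHAC1: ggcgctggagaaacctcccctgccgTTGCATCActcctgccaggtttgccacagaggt

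Interferon-stimulated genes, which cells turn on against viruses, were also mostly lower. Of 30 listed genes 26 were measured, 22 were below 0, and the median was -0.40. At least 2-fold lower were 2, at least 1.5-fold lower were 10, and at least 1.5-fold higher was 1. IFITM1, an antiviral membrane protein, went from 1.497 to -0.02, a change of -1.52, and a second probe, from 0.25 to -1.06 and in an area of stray signal, gave -1.31. BST2, the tetherin that holds virus particles at the cell surface, went from -0.75 to -1.88, a change of -1.13, and its second probe gave -0.85. With normexp and quantile normalization neither was still past 2-fold, IFITM1 at -0.92 and BST2 at -0.35. The relatives IFITM2 and IFITM3 differed by -0.70 and -0.73, with the IFITM2 spot in an area of stray signal.

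The factors that relay the interferon signal were among the lower genes. IRF7 went from 2.56 to 1.62 and IRF9 from 1.41 to 0.49, changes of -0.94 and -0.92. STAT2, a partner of IRF9, lay at -0.16 in an area of stray signal. Among effectors, IFI6 differed by -0.98 in an area of stray signal, IFIT1 by -0.77 and OASL by -0.76. IFI44 went the other way, from -2.64 to -1.83, a change of 0.80. The list had a median of 0.04 in A549. HLA class I and peptide loading genes had a median of -0.19 over 13 genes, and PSMB9, a subunit of the immunoproteasome, was the 1 gene past 1.5-fold, at -0.91. HLA-DQB1, a class II gene that differs between people and lines, was lower on each of 4 measured probes, by -1.16 to -1.02, with 1 of the 4 in an area of stray signal.

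The response element of these genes was searched as GAAA, any 2 bases and GAAA again, on both strands of the same promoter windows. It was in 15 of the 21 list members with a promoter in the table and in 3.65% of all promoters. As this is the response element of such genes, its share in the list does not depend on these arrays. Of the 26 measured members 18 had a promoter in the table. The 14 with the element had a median change of -0.40 and the 4 without it -0.14, too few to compare. Stretches of BST2 (chr19:17405726-17405785, minus strand) and IFIT1 (chr10:89392482-89392541, plus strand, GRCh38.p14) are shown because each holds 2 matches close together, in capitals, and those of BST2 overlap.
BST2: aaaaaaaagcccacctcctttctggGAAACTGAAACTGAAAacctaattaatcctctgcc
IFIT1: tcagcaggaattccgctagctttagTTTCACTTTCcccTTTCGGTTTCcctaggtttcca

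Genes for making cholesterol and fatty acids were lower by small amounts across nearly the whole of both lists. Sterol synthesis genes had a median of -0.41, with 21 of 22 below 0, 5 at least 1.5-fold lower and none past 2-fold. INSIG1, a brake on sterol synthesis, differed by -0.73, and the enzymes MVD, LSS and IDI1 differed by -0.75, -0.67 and -0.66. HMGCS1, an early enzyme, lay at 0.04, the 1 member above 0.

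Fatty acid synthesis genes had a median of -0.51, with 12 of 13 below 0, 5 at least 1.5-fold lower and none past 2-fold. ACSS2, which makes acetyl-CoA from acetate, went from 4.23 to 3.28, a change of -0.95. FASN, the fatty acid synthase, went from 7.99 to 7.33, and FADS1, a desaturase read in an area of stray signal, from 5.27 to 4.44. SCD, a desaturase of the same pathway, went from 3.13 to 3.50, the 1 member above 0. SREBF2 and SREBF1, the transcription factors of both lists, differed by -0.55 and -0.43, the latter in an area of stray signal. The sterol response motif, searched as TCACNCCAC, was in none of the 16 sterol genes with a promoter in the table, in SREBF2 among the 13 fatty acid genes, and in 1.15% of all promoters. Glycolysis and hypoxia genes had a median of -0.24, with 21 of 24 below 0, led by ALDOC, which went from 3.96 to 3.09.

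**Figure D2:**
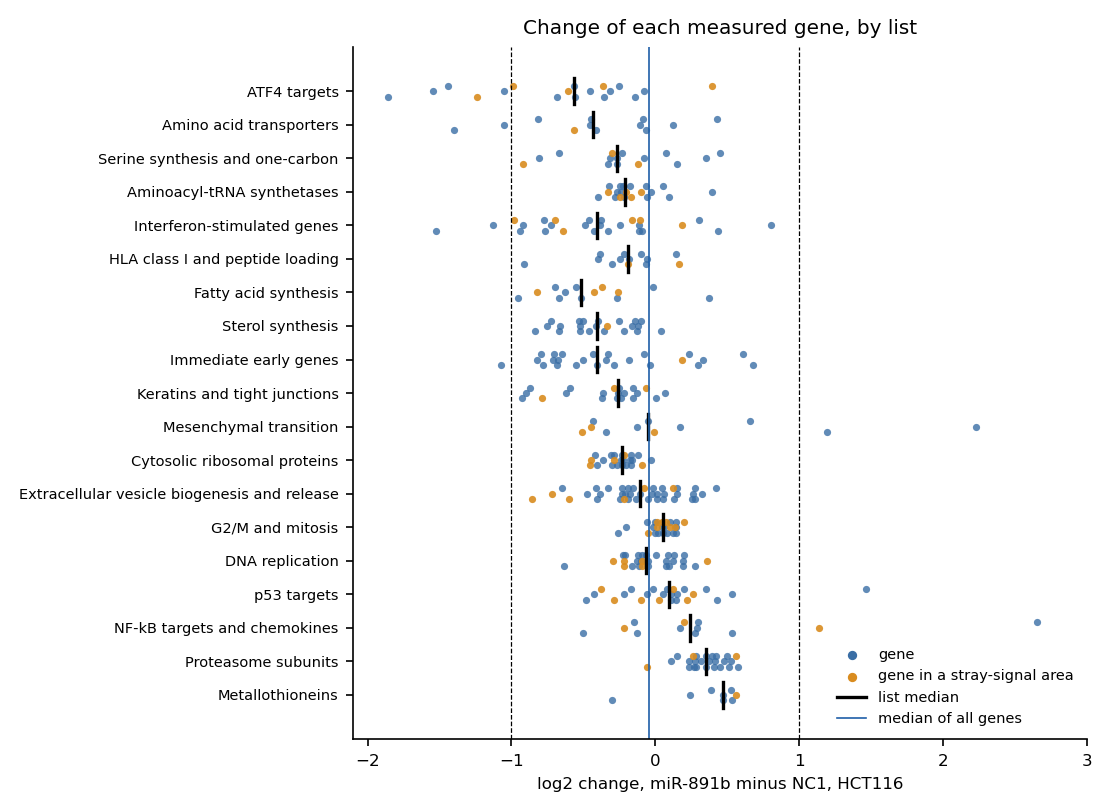
Change (log2, miR-891b minus NC1, HCT116) of each measured gene of 19 lists; each point is a gene, orange where its spot lay in an area of stray signal, black bars are list medians, the blue line is the median of all genes at -0.04 and dashed lines mark 2-fold. The ATF4 target median lies lowest at -0.56 and the metallothionein median highest at 0.47, while few single genes reach 2-fold.

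Genes of the early response to growth signals had a median of -0.41, with 19 of 25 below 0, 9 at least 1.5-fold lower and 2 at least 1.5-fold higher. NR4A3, an orphan nuclear receptor, went from -0.95 to -2.02, a change of -1.07 and the only one past 2-fold. Its change was -0.33 with normexp and quantile normalization. EGR1 went from 5.11 to 4.43 and FOS from 0.74 to -0.03. The feedback inhibitors SPRY4 and SPRY2 lay at -0.82 and -0.65. Of the phosphatases that damp the same pathway, DUSP5 and DUSP6 lay at -0.43 and -0.35, and DUSP4 and DUSP1 at 0.33 and 0.19, DUSP1 in an area of stray signal. JUN and KLF4 lay on the other side, at 0.68 and 0.61. ERRFI1, a feedback inhibitor of the EGF receptor, differed by -0.69.

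NRG1, a ligand of the EGF receptor relatives ERBB3 and ERBB4, was higher. Its level went from -2.61 to -0.51, a change of 2.11, and a second probe, from -3.29 to -1.36, gave 1.92. Normexp with quantile normalization lowered the change to 0.63. EREG and AREG, other ligands of the family, lay at 0.42 and -0.22, and EGFR at -0.35. The receptor ERBB3 lay at -0.04.

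Of 20 measured keratin and tight junction genes 18 were below 0, with a median of -0.26 and 6 at least 1.5-fold lower. KRT23, a keratin, went from 4.41 to 3.49, CLDN3, a claudin, by -0.90 and CLDN7 from 4.82 to 3.95. CDH1, E-cadherin, went from 3.25 to 2.46, a change of -0.79 read in an area of stray signal. KRT8, KRT18 and KRT19, the main keratins of simple epithelium, lay at -0.24, -0.22 and 0.07.

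ZEB1, a repressor of CDH1, went from -0.63 to 0.56, a change of 1.19, and a second probe was well above background only with miR-891b. ZEB2, its relative, went from -2.31 to -0.08 on 1 probe, a change of 2.23, while its other 2 probes were dim on both arrays. VIM, vimentin, differed by 0.66 to a level of 1.76. SNAI1 and TWIST1, further regulators of the transition, lay at -0.13 and -0.05. The mesenchymal list as a whole had 7 of 11 measured genes below 0 and a median of -0.05, close to that of all genes. ELF3, an epithelial transcription factor, went from 3.14 to 2.14, a change of -1.001. With normexp and quantile normalization ZEB1 (0.69), ZEB2 (0.71) and ELF3 (-0.79) were all short of 2-fold.

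Metallothioneins and proteasome subunits had the highest medians of the 38 lists. Of 25 proteasome subunits 24 were above 0, with a median of 0.36 and none past 1.5-fold. The values ran from -0.06 for PSMA1, in an area of stray signal, to 0.57 for PSMD1, which went from 6.50 to 7.08. Both the catalytic core (PSMB5, 0.29) and the regulatory cap (PSMC2, 0.48, and PSMD14, 0.51) had subunits above 0. The A549 median of the list was -0.08. Metallothioneins and the zinc exporter SLC30A1 had a median of 0.47 with 7 of 8 measured genes above 0 and none past 1.5-fold, and MT1X, in an area of stray signal, went from 2.84 to 3.40. Metallothionein genes are near copies of each other, so their probes may share transcripts.

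Cytosolic ribosomal protein genes lay below 0 in all 23 measured cases, by -0.46 to -0.03, with a median of -0.23. Probes rich in G and C had a median change of -0.09 in the most GC-rich of 3 groups of probes and 0.00 in the least, and the part of base composition in these small shifts was not tested. Mitochondrial ribosomal protein and respiratory chain genes had medians of -0.04 and -0.02.

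Cell cycle genes stayed near 0 in HCT116. All 24 G2/M and mitosis genes were measured, none was past 1.5-fold, and the median was 0.05, with PLK1, the mitotic kinase, at -0.20 and CCNB1, cyclin B1, at 0.05. DNA replication genes had a median of -0.06 over 29 genes, and CDC6, a loader of the replicative helicase, was the 1 gene past 1.5-fold, at -0.63. The same lists had medians of -1.74 and -1.57 in A549. Among regulators of G1, CDK6, a cyclin D kinase, went from 3.86 to 4.65, CDKN1C, an inhibitor, from 4.51 to 3.77 and CCNE2, cyclin E2, differed by 0.60.

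Genes that p53 controls had a median of 0.09 over 24 measured genes. PMAIP1, also called NOXA, which neutralises the survival protein MCL1, went from 3.69 to 5.15, a change of 1.46 and the only one past 2-fold. CDKN1A, the cell cycle inhibitor p21, went from 1.11 to 1.47, and BBC3, also called PUMA, from 4.71 to 4.23. BCL2L11, also called BIM, went from 2.12 to 2.81, a change of 0.69. Genes of NF-kB and chemokines had a median of 0.24 over 12 measured genes, with 8 of 20 listed genes not measured. CCL26 and BIRC3, an inhibitor of cell death, were past 2-fold, and BIRC3, at 1.14, was read in an area of stray signal.

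The genes that build and release extracellular vesicles stayed near the background. Of 40 listed genes 39 were measured, 24 were below 0, and the median was -0.10. None was past 2-fold, and 4 were at least 1.5-fold lower. VAMP7, a fusion protein of secretory vesicles, went from 3.18 to 2.53, a change of -0.65. FLOT1 (-0.86), RAB31 (-0.72) and SNAP23 (-0.60) were read in areas of stray signal. The vesicle marker CD63 and the release factor RAB27A lay at -0.02 and 0.28, and HGS, which sorts cargo into vesicles, at 0.42.

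**Figure D3:**
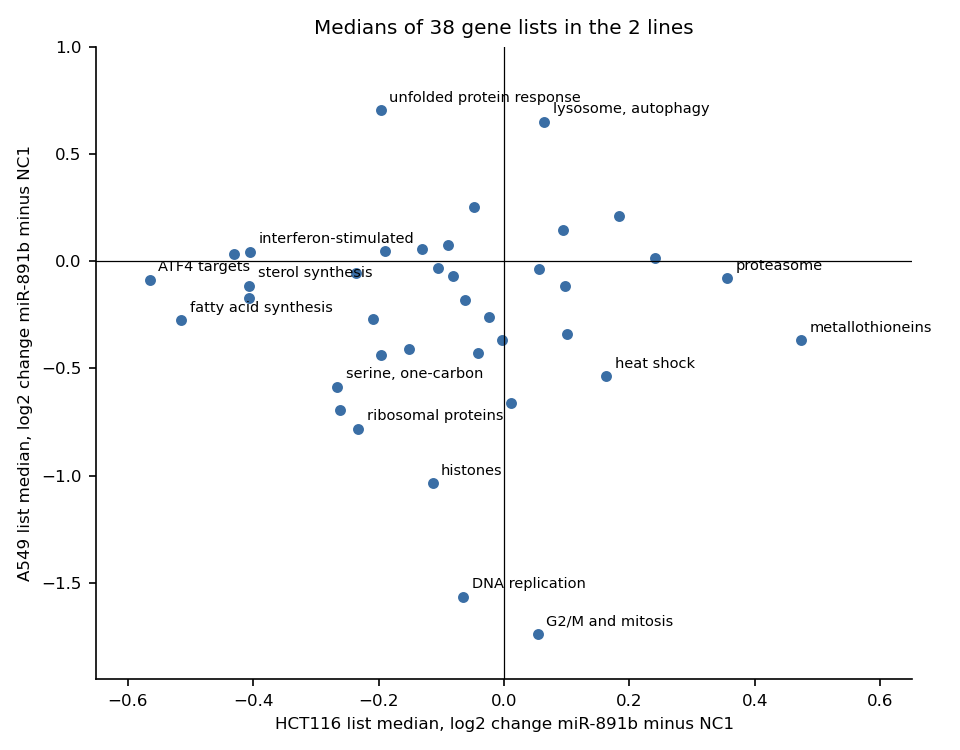
Median log2 change (miR-891b minus NC1) of each of 38 gene lists in HCT116 (horizontal) and A549 (vertical), 1 array per group in each line. The G2/M and DNA replication lists lie near 0 in HCT116 and at -1.74 and -1.57 in A549, and the ATF4 target list lies at -0.56 in HCT116 and -0.09 in A549.

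The largest single changes were named by rank among genes with an established name and a probe outside stray areas. The lowest was IL21R, the receptor of interleukin 21, which went from 1.66 with NC1 to -0.70 with miR-891b, a change of -2.35 (probe at chr16:27461324-27461383, hg19). TNNC1, troponin C of slow muscle and heart, went from 1.096 to -0.77, a change of -1.87. SMCR8, a partner of C9orf72, went from -0.24 to -1.97, and PRR15L from 0.78 to -0.86. METTL7A, a methyltransferase-like membrane protein, went from 1.998 to 0.42. These probes were well above background on both arrays, so each change rests on 2 measured signals.

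Others among the 15 lowest were KCNAB3, a potassium channel subunit (-1.54), NKX2-1, a lung and thyroid transcription factor (-1.52), and CEMIP, which binds and breaks down hyaluronan (-1.48). ANXA9, an annexin, changed by -1.43 and VWA5B2 by -1.41. NUPR1, CHAC1, IFITM1, PCK2 and SLC7A8, described above, complete the 15. With normexp and quantile normalization, 5 of these 15 (IL21R, TNNC1, METTL7A, CHAC1 and VWA5B2) were still past 2-fold. Lower on each measured probe by at least 1.5-fold were also ORAI3, a calcium channel subunit (-1.13 and -0.60), RAB37, a GTPase of secretion (-1.03 and -0.91), and the antisense transcript SEMA3B-AS1 (-1.07 and, in an area of stray signal, -1.05). PLA2G10, a secreted phospholipase, was lower on both of its probes as well, with its brighter probe (-1.65) in an area of stray signal on the NC1 array. ORAI3 (-0.44), RAB37 (-0.75), SEMA3B-AS1 (-0.47) and PLA2G10 (-0.72) were short of 2-fold with normexp and quantile normalization.

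AKR1B10, a reductase of aldehydes, had the highest change among the named genes outside stray areas. It went from -2.29 to 2.18, a change of 4.47 or 22.2-fold (probe at chr7:134225939-134225998, hg19, in row 49 of the array's 384). A second probe, in row 350, went from -1.99 to 2.06, a change of 4.05. Normexp with quantile normalization lowered the change to 2.38. AKR1B15, a near-identical neighbour whose transcripts the probes may share, changed by 4.54 in an area of stray signal.

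AKR1B10 is abundant in A549, where its level was 9.88 with NC1 and 9.69 with miR-891b, so a list of A549 and lung markers was read on the HCT116 arrays. On the array with miR-891b 6 of 10 were well above background, and 7 were with NC1. In A549 itself 7 of the 10 were well above background on both arrays. NKX2-1, counted in HCT116, was not measured in A549, at -6.26 with NC1 and -6.24 with miR-891b. The counts therefore do not mark A549 alone. Read on the probe used for each gene, ALDH1A1 was dim on both HCT116 arrays and AKR1C1 was dim with miR-891b. Another AKR1C1 probe was well above background on both, at -2.98 with NC1 and -2.52 with miR-891b, and another ALDH1A1 probe was so with NC1, at -2.68. The summed linear level of the 10 markers was 65.1 with NC1 and 57.7 with miR-891b, and 64.9 and 53.2 without AKR1B10, against 3149 in A549 with NC1. Of 107 genes at least 8 log2 units higher in A549 than in HCT116 with NC1, 95 were dim on both HCT116 arrays. A low HCT116 level with NC1 was part of the choice of the 107, which itself favours a higher level with miR-891b. Well above background with miR-891b were 8, and 5 of these were at least 2-fold higher there: AKR1B10, AKR1B15, EDN1, FGL1 and TUSC3, the last 3 of them dim with NC1 and FGL1 also in an area of stray signal. AKR1C3, another reductase of the family, went from 0.12 to 1.03, a change of 0.90.

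**Figure D4:**
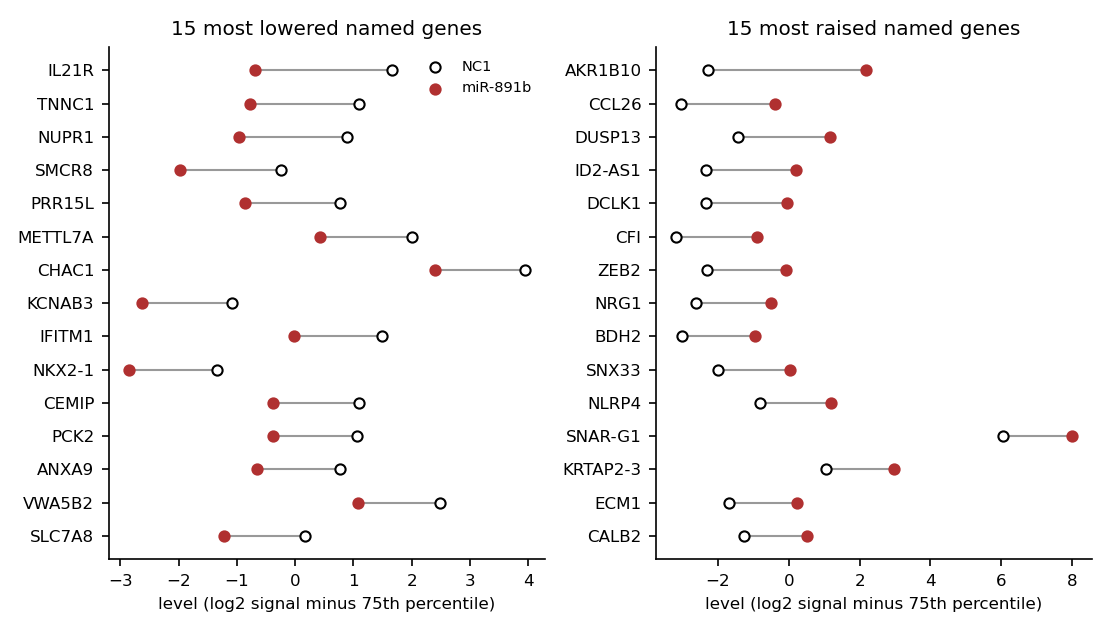
Level (log2 signal minus the array's 75th percentile) with NC1 (open) and miR-891b (filled) for the 15 most lowered and the 15 most raised named genes outside stray areas, 1 array each. AKR1B10 spans -2.29 to 2.18, and most of the raised genes start below 0; KRTAP2-3 and SNAR-G1 start above it, SNAR-G1 going from 6.05 to 8.005.

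CCL26, the chemokine eotaxin-3, went from -3.05 to -0.40, a change of 2.65, and DUSP13, a dual-specificity phosphatase, from -1.45 to 1.15, a change of 2.60. Both were higher in A549 too, by 3.12 and 3.16. ID2-AS1, a transcript antisense at ID2, went from -2.33 to 0.20, a change of 2.53, while ID2 itself, a repressor of differentiation factors, went from 5.65 to 5.03. DCLK1, a microtubule-binding kinase, changed by 2.30 and CFI, complement factor I, by 2.29, and the other probes of both genes were dim on both arrays. BDH2 (2.07) and SNX33 (2.03), a sorting nexin, were also among the 15 highest. With normexp and quantile normalization, 5 of the 15 highest (AKR1B10, DUSP13, NLRP4, SNAR-G1 and KRTAP2-3) were still past 2-fold, and CCL26 (0.78), DCLK1 (0.85), CFI (0.57), BDH2 (0.43) and SNX33 (0.74) were among the 10 that were not.

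Further down the 15 highest came NLRP4, an innate immune regulator (1.99), KRTAP2-3, a hair keratin-associated protein (1.91), ECM1, a secreted matrix protein (1.90), and CALB2, calretinin (1.79). SNAR-G1, a short noncoding RNA of a family of near copies, went from 6.05 to 8.005, a change of 1.95, and SNAR-F from 9.21 to 10.3, a change of 1.07. The copies of this family may share probes. KRTAP2-3 also has close relatives, and its value may include theirs.

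Several higher genes rested on more than 1 probe. AGPAT4, an acyltransferase of phospholipid synthesis, changed by 1.49, 1.25 and 0.92 on 3 probes, the last in an area of stray signal. TSC22D2 changed by 1.64 and 0.62, and TM4SF19 by 1.24 and 1.03, from dim levels of -3.08 and -2.77 with NC1. With normexp and quantile normalization AGPAT4 was still past 2-fold (1.23), whereas TSC22D2 (0.85) and TM4SF19 (0.17) were not. In all, 4344 genes had at least 2 measured probes and 46 of them were past 2-fold. On 22 of the 46 every measured probe moved at least 1.5-fold the same way, 9 lower and 13 higher, and on 13 the probes had opposite signs.

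**Figure D5:**
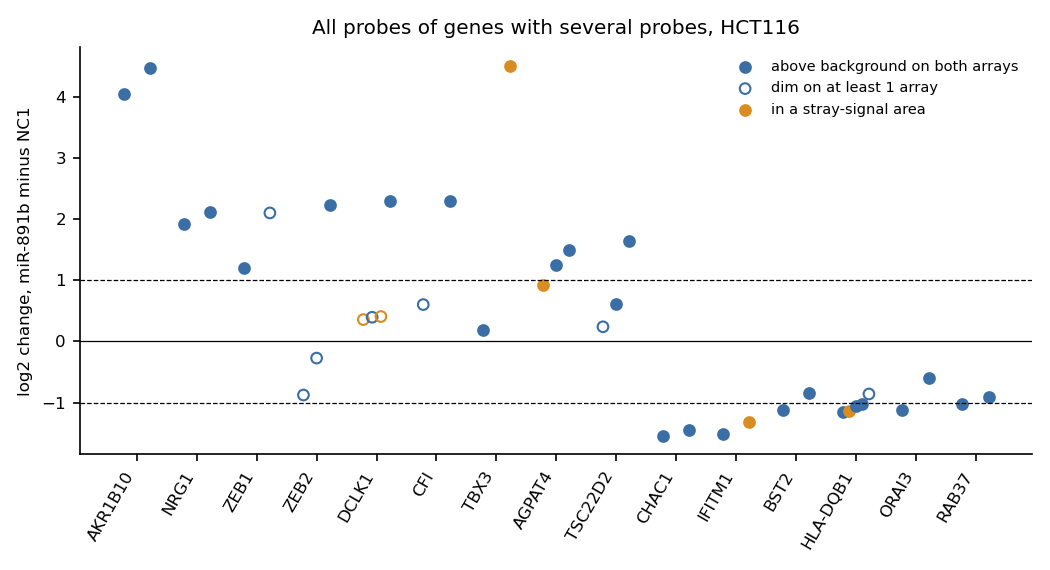
Change (log2, miR-891b minus NC1, HCT116) on every probe of 15 genes with several probes; open circles are dim on at least 1 of the 2 arrays and orange marks areas of stray signal. The probes of AKR1B10, NRG1, CHAC1 and HLA-DQB1 lie together, whereas TBX3 has 1 probe at 4.51 and another at 0.19.

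Large changes also occurred inside the stray areas, where the value cannot be told apart from stray signal by this array alone. ZNF563 changed by 4.64, TBX3, a developmental transcription factor, by 4.51 and SOAT2, which esterifies cholesterol, by 4.15. A second TBX3 probe, outside such areas, went from -1.80 to -1.61.

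Bright genes past 2-fold were few, and they are named here after their values were seen. NOTCH3, a Notch receptor, went from 3.71 to 2.60 and TSC22D3, a glucocorticoid-induced regulator, from 3.65 to 2.48. MRC2, a collagen receptor, changed by -1.21 and CDK2AP2 by -1.03. On the higher side, VCAN, the proteoglycan versican, went from 1.69 to 3.28, PLK2, a stress-induced kinase, from 3.73 to 4.80 and GLA, the lysosomal galactosidase, from 4.65 to 5.69. These belong to the group by level with the smallest spread.

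Some transcripts were well above background on 1 array only, so a bound replaces the change. It sets the bright array against the higher of the dim probe's own level and the lowest level well above background on the dim array. The bounds hold for the main processing only and were not recomputed with normexp and quantile normalization. Outside stray areas, 1277 genes were read only with NC1, 65 of them with a bound of 2-fold or more, and 529 only with miR-891b, 294 of them with such a bound. In stray areas, 248 genes were read only with NC1, 35 of them with such a bound. Only with miR-891b there were 513 in stray areas, 421 of them with such a bound. CPA4, a carboxypeptidase, was 24.5-fold higher with miR-891b, with levels of -3.36 and 1.26. Its dim NC1 level lay above the lowest level well above background there (-3.55), so this value is the plain difference and not a lower limit. The small nucleolar RNA SNORD116-29 was at least 22.1-fold higher, PSG5 at least 19.8-fold, OTP at least 15.5-fold and LINC01247 at least 15.4-fold. SNORD116-29 and PSG5 lay just under the 10% limit of stray areas on the miR-891b array, at 9.41% and 9.84%, so stray signal may enter their values. CCDC42 was at least 13.02-fold lower, with levels of 0.57 and -5.12, and LINC00928 at least 11.9-fold. ACKR2, a decoy receptor that removes chemokines, was at least 6.05-fold lower, LRG1 at least 2.88-fold, IL1RAP, a subunit of the interleukin 1 receptor, at least 2.80-fold and PLA2G4D at least 2.78-fold.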

How the data were processed

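Total RNA (100 ng) was labelled with Cy3 and hybridised to 1-colour Agilent arrays, per the labels. The scans were quantified with Agilent Feature Extraction 11.5.1.1, per the file headers, which subtracted background and give probe coordinates on hg19. In the deposited scanner files the values are linear intensity. The deposited table of the authors' values holds log2 values with the scale unstated. Set beside the scanner values, they matched log2 signal less the 75th percentile (median absolute difference 0.0069 with NC1 and 0.0050 with miR-891b), with column medians of -3.80 (NC1) and -3.60 (miR-891b) in HCT116, so scale, centring and direction were matched.

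Here, spots with a feature outlier mark were left out, the log2 processed signals of a probe's spots were averaged, and each array was centred on its 75th percentile over gene probes. A gene was read by the probe that was brightest on average over the 4 arrays and was measured where Feature Extraction marked that probe well above background on both HCT116 arrays. Groups came from the titles, with 1 array each, so no test between groups was made. Precision is limited by having so few arrays. Of 43317 array names, 21081 were current RefSeq symbols and 1624 older ones.

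Named genes were members of 38 gene lists (past 2-fold first), the 15 lowest and 15 highest changes outside stray areas, genes whose probes moved together, the 6 largest bounds each way and lowered probes with the seed site. Members, lists and rules were chosen with earlier results of these data known. Steps were tested on simulated data. Python 3.11.15, numpy 2.4.6, pandas 2.3.3, R 4.3.3 and limma 3.58.1 were used. The alternatives tried were other background correction and scaling, the authors' values, dim-probe filters, the mean over probes, array position, outlier marks and fold thresholds. Some genes that the rules name are not reported here.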

Additional observations from a re-analysis of the deposited data

Results flagged for a closer look

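Some genes and lists had changes of opposite sign in HCT116 and A549, beyond 2-fold for the genes; each line had 1 array per group, and this difference between lines was not tested. NUPR1 changed by -1.86 in HCT116 and 2.13 in A549, METTL7A by -1.58 and 1.096, CEMIP by -1.48 and 1.53, and VWA5B2 by -1.41 and 1.36. S100P, a calcium-binding protein, changed by 1.46 and -1.87, with its spot in an area of stray signal on an array.

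Among lists, the unfolded protein response had a median of -0.20 in HCT116 and 0.71 in A549. The heat shock chaperones had 0.16 and -0.54, nucleolar ribosome biogenesis 0.10 and -0.34, and metallothioneins 0.47 and -0.37.

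Negative control spots, which no comparison used, were well above background at 11 of 308 on HCT116 miR-891b and at 0 of 308 on HCT116 NC1.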

How the results depend on the processing

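No paired analysis was possible because each group has 1 array and the labels give no replicate numbers. The counts of genes at least 2-fold lower and higher (161 and 221) became 13 and 32 with normexp and quantile normalization, 1434 and 2788 with no filter on dim probes, 33 and 16 among signals above the median, 96 and 81 in rows 193 to 384, 1080 and 747 at 1.5-fold and 13 and 68 at 3-fold. Leaving out probes in stray areas, so that a gene was read on another probe where it had one, gave 143 and 139 of 16734 genes. The filters and thresholds change by construction how many genes enter or pass; for the normalization the cause was not tested. The medians of 22 of 24 lists beyond 0.1 from 0 kept their sign in all 10 settings tried. The BCL2 family (0.18) turned to -0.00775 outside stray areas and -0.00832 in rows 193 to 384. The EGFR family (-0.13) turned to 0.14 outside stray areas and, likewise 0.14, with no filter on dim probes. Of the other 14 lists 8 changed sign in at least 1 setting. Of 54 named genes past 2-fold, 15 were still past it with normexp and quantile normalization, and none changed direction in any setting. Leaving out spots with a background outlier mark was chosen after seeing the data and gave 162 and 204. The difference for sites to bases 2 to 8 (-0.06) kept its sign in the 7 settings it was computed in, between -0.07 and -0.04. Dim probes limit the rest: the dimmest of 3 equal groups by signal held 86 of the 161 lower and 168 of the 221 higher genes.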

Other observations

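Single genes outside the described groups also differed. NEAT1, the RNA that builds paraspeckles, went from 5.57 with NC1 to 6.49 with miR-891b, a change of 0.92, and MALAT1, a nuclear RNA from the neighbouring locus, from 6.25 to 6.86. Other noncoding host RNAs such as GAS5 (-0.15) and SNHG1 (0.11) lay nearer 0. SLPI, a secreted protease inhibitor, went from -1.47 to -2.74, a change of -1.26, or -0.27 with normexp and quantile normalization. S100A14 went from 5.89 to 4.92, and SERPINB5, also called maspin, from 3.99 to 4.76. DKK1, a secreted Wnt inhibitor, differed by 0.88 and EPHB3, an ephrin receptor of the crypt, by -0.91. CTSD, a lysosomal protease, went from 2.52 to 3.32. The export pumps ABCC2 and ABCC3 differed by -0.84 and -0.83, on the other side of 0 from AKR1B10 in the same list of NRF2 targets.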
